A study of Mus musculus with 24 samples.

Results

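The genes described here belong to the smooth muscle and contractile apparatus, and were followed by RNA-seq in mouse embryonic stem cells (ESCs) that lack Tet proteins, before and after differentiation. Their 10 symbols, Acta2, Actc1, Actg2, Tagln, Cnn1, Myl9, Myh9, Tpm1, Tpm2 and Myocd, were chosen from the 22926 gene symbols in the count tables. All 10 had counts. After the filter on low counts 9 were tested between days and at D6, and 7 at D0 (not Actc1 and Myocd), while Actg2 had 0 to 5 counts in every library and passed no filter.

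Smooth muscle contracts when myosin, switched on by phosphorylation of its light chain, pulls on filaments of smooth muscle actin that are coated with tropomyosin and bound by calponin-like proteins. Many of these genes are turned on by serum response factor (SRF), which binds a short DNA element called the CArG box, and by its coactivator myocardin (Myocd). Actins and non-muscle myosin also serve the shape and movement of most other cells, so a contractile gene is not by itself a marker of muscle.

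The cells were 129/SVj-derived mouse ESCs of a single parental clone that carries eGFP at the Pou5f1 locus and was called wild-type (WT). CRISPR/Cas9 editing gave single knockouts of Tet1 and of Tet2, a DKO that lacks both and a TKO that lacks Tet3 as well. Each day had 12 libraries of polyadenylated RNA, 3 each for WT and Tet1-/- and 2 each for Tet2-/-, DKO and TKO. D0 cells were undifferentiated, and D6 cells had grown for 6 days without leukemia inhibitory factor (LIF), the cytokine that keeps ESCs pluripotent. Each library of a group came from its own clone, so the spread between replicates includes differences between clones. The days used the same clones apart from 1 Tet1-/- clone each. For some Tet2 and Tet3 alleles a single sequence was found, and the alleles are small insertions and deletions. Replicates carry the numbers of each day's own labels, so a number can stand for different clones at D0 and D6.

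Totals ranged from 21729346 to 37290208 counts per library at D0 and from 18400463 to 34219640 at D6. Levels are given as CPM, counts per 1000000 after TMM scaling over all 24 libraries, and 3 counts, the limit that a count of 0 allows, equalled 0.0814 to 0.151 CPM. The edited genes checked the labels in part. At D0 Tet2 was at 20.9 to 23.2 CPM in Tet2-/- and 87.9 to 93.9 CPM in WT, but at D6 the ranges were 15.9 to 16.6 and 12.3 to 16.0 CPM. Tet1 overlapped between Tet1-/- (93.4 to 358 CPM) and WT (220 to 431 CPM) at D0, and TKO ranged from 41.7 to 567 CPM. Small insertions and deletions need not lower a transcript, so these levels do not check the loss of protein. ESC markers (Pou5f1, Nanog, Sox2, Zfp42, Esrrb and Dppa5a) summed to 4414 to 5293 CPM at D0. At D6 they summed to 745 to 1986 CPM in WT and 2261 to 2456 CPM in Tet2-/-, above every other D6 library.

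On build mm9 (GENCODE vM1) the actins lie apart, Acta2 on chromosome 19 (34315580 to 34329826), Actc1 on chromosome 2 (113873018 to 113879284) and Actg2 on chromosome 6 (83462899 to 83486259). Tagln (45737711 to 45744141), Cnn1 (21903725 to 21914074) and Tpm1 (66870397 to 66897213) share chromosome 9. Myl9 lies on chromosome 2 (156601156 to 156607394), Myh9 on chromosome 15 (77591017 to 77672605), Tpm2 on chromosome 4 (43527583 to 43536637) and Myocd on chromosome 11 (64990063 to 65083491).

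The first comparison asked how the contractile genes changed during LIF withdrawal. Of the 9 genes in the fit over both days, Actc1 and Myocd passed the filter on low counts through their D6 libraries alone, so their rise is a description. In WT cells the other 7 all rose, from 3.37-fold for Myh9 to 239-fold for Acta2, whose fold rests on 14 counts at D0. Acta2 passed the D0 filter through other genotypes, with at most 9, 3 and 4 counts per D0 library in WT, Tet1-/- and TKO. Its rise in those genotypes is also a description. A gene was called changed at an adjusted p under 0.05 with a fold change over 2, and 20.7% of all tested genes were called higher in WT by that rule. The 7 genes also rose in Tet1-/- (background 19.9%), in DKO (background 18.6%) and in TKO (background 16.8%). In Tet2-/- 6 of the 7 rose (background 12.7%), and Myh9 did not. Their median log2 fold change was 4.12 in WT and 5.18 in Tet2-/-, beside 0.0146 and -0.00057 over all tested genes, but the median of the differences between the 2 rises, gene by gene, was -0.91, and 5 of the 7 were below 0. Because RNA came from whole cultures, a change in the number of cells that express a gene and a change in RNA per cell cannot be told apart.

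**Figure D1:**
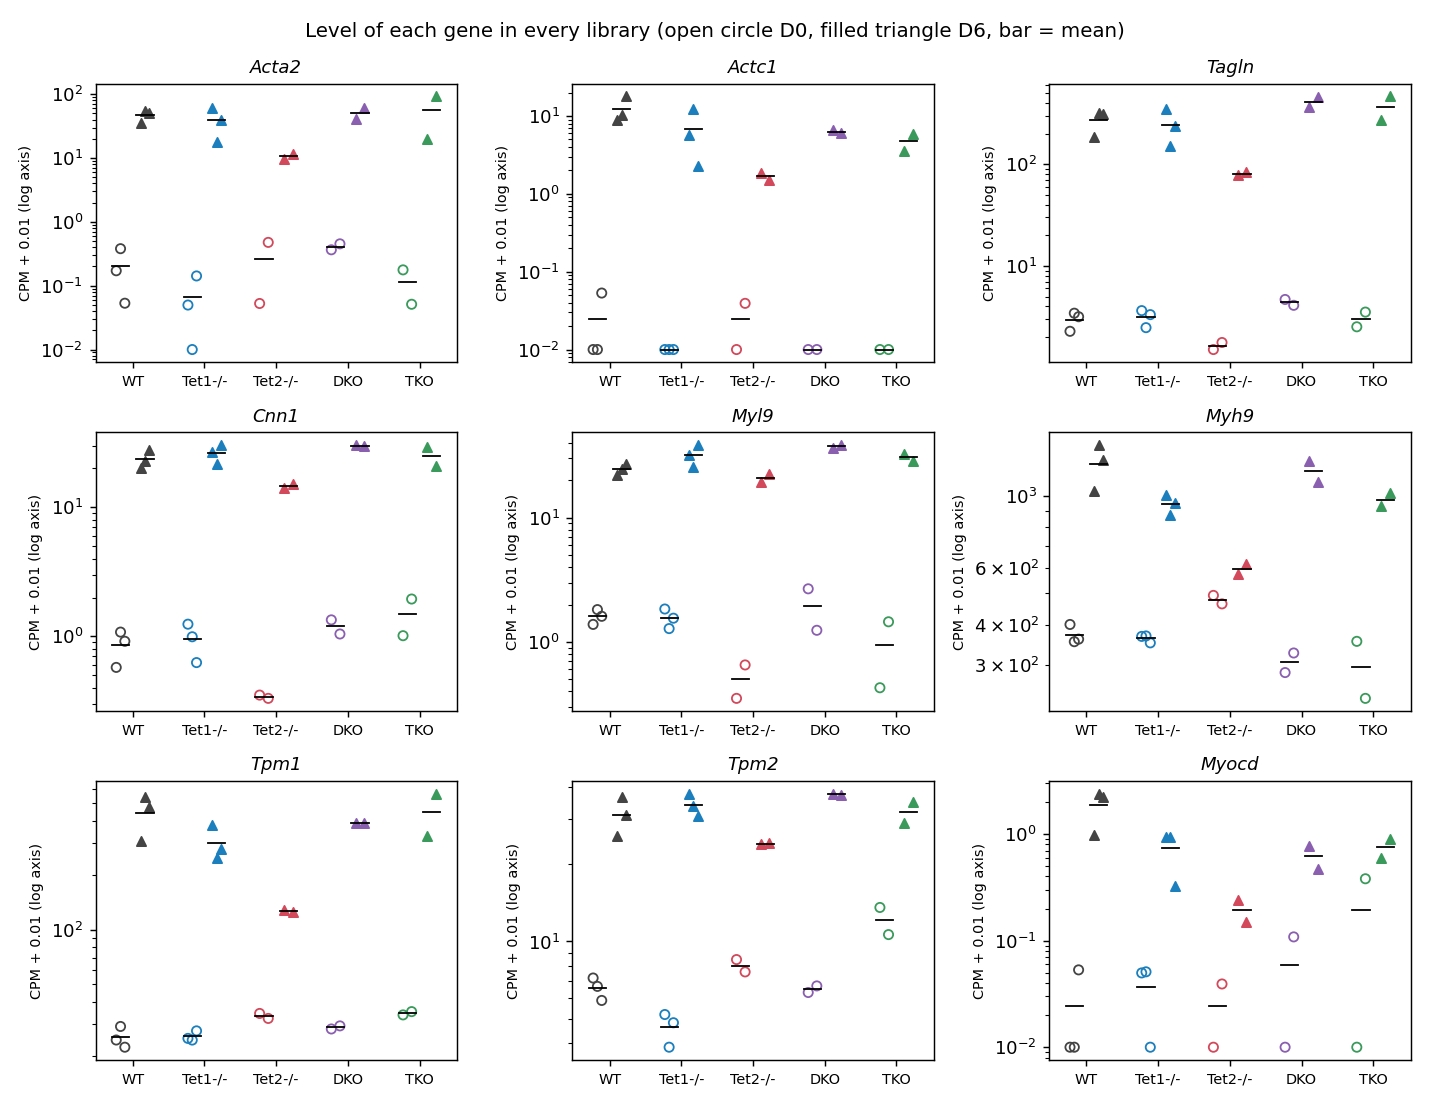
CPM plus 0.01 on a log axis for 9 contractile genes in every library, with open circles for D0, filled triangles for D6 and a bar for the group mean. Tagln rose in all genotypes, and both Tet2-/- clones (78.4 and 83.9 CPM) lay below the other 10 D6 libraries.

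Acta2 encodes smooth muscle alpha-actin, the main actin of the smooth muscle filament. At D0 it was between 0 and 0.467 CPM in every library. At D6 it reached 35.6, 55.0 and 51.3 CPM in WT replicates 1, 2 and 3, and 60.1, 17.9 and 40.0 CPM in Tet1-/-. DKO replicates 1 and 2 stood at 41.3 and 60.7 CPM, TKO at 20.2 and 92.8 CPM, and Tet2-/- at 9.67 and 11.5 CPM. No D6 library overlapped with D0, the Tet2-/- clones were the lowest at D6, and the TKO clones spanned most of the range. The rise was 7.90 ± 0.72 on the log2 scale in WT (SE, edgeR quasi-likelihood test, adjusted p = 3.39e-08) and 5.18 ± 0.81 in Tet2-/- (adjusted p = 7.41e-05). The size of both rests on few D0 counts, 1 to 9 per WT library and 1 and 16 in Tet2-/- replicates 1 and 2. Without Tet2-/- D0 replicate 2 the rise in Tet2-/- was 7.80, close to the 7.90 in WT, and without replicate 1 it was 4.51. In WT it was 8.76 without D0 replicate 2 and 7.45 without D0 replicate 3, so a smaller rise in Tet2-/- was not shown for Acta2.

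Actc1, the alpha-actin of heart muscle that also appears early in smooth muscle development, was at 0 counts in 10 of 12 D0 libraries and at 1 count in the other two. At D6, in replicate order, WT had 8.82, 10.4 and 17.9 CPM and Tet1-/- 5.63, 12.5 and 2.27 CPM. DKO had 6.59 and 6.01 CPM, TKO 3.51 and 5.94 CPM, and Tet2-/- 1.84 and 1.499 CPM. The Tet2-/- clones were again the lowest, and Tet1-/- replicate 3 was the next above them. With 1 count at D0, the pooled D6 to D0 ratio was 928 in WT (95% counting interval 166 to 36707) and 97.3 in Tet2-/- (17.1 to 3879). Against the limit of 3 counts over the group, Actc1 was at least 157-fold higher at D6 in Tet1-/-, 90.4-fold in DKO and 71.3-fold in TKO. Counting intervals and limits cover counting error only.

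Actg2, the gamma-actin of gut smooth muscle, had 7 counts in total at D0 and 8 at D6 in WT, and 1 and 0 in Tet2-/-. No difference was detectable at this depth. Per kilobase of the longest coding transcript, the mean WT level at D6 was 26.6 CPM for Acta2, 8.41 CPM for Actc1 and 0.0717 CPM for Actg2. The 3 actins were separable by the reads, since 1.09% of the 38-base words of Acta2 and 0.07% of those of Actc1 occurred in the coding transcript of any other gene.

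The promoters of Acta2, Actc1 and Myl9 are shown because they hold the element that SRF binds, or letters close to it, in genes that rose together. The promoter table, from RefSeq on build GRCm38.p6, held 7 of the 10 genes, and Actg2, Tagln and Myocd had no entry. The CArG box was searched on both strands in the 250 bases before each start. An exact match occurred in 2 of the 7 promoters (Actc1 and Myl9), and 1.47% of all 32851 promoters held one. A match with at most 1 letter changed occurred in 4 of the 7, adding Acta2 and Tpm1, and in 18.6% of all promoters. Each window runs 5′ to 3′ along the gene, from chr19:34255374-34255493 for Acta2, chr2:114052876-114052995 for Actc1 and chr2:156775264-156775383 for Myl9. Acta2 and Actc1 lie on the minus strand and Myl9 on the plus strand, and capitals mark exact matches and matches with 1 letter changed.
Acta2: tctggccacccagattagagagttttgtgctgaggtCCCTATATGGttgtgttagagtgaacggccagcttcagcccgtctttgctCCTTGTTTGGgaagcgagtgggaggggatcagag
Actc1: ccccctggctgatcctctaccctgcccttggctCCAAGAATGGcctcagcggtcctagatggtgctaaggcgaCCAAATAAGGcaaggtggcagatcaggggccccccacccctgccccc
Myl9: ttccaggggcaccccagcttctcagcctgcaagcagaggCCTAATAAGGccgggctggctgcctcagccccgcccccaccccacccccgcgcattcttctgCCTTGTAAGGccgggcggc

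In Actc1 the exact match began 47 bases before the start, and in Myl9 161 bases before it. In Acta2 both marked stretches have 1 letter changed and began 84 and 34 bases before the start. A match of letters describes the sequence and does not show binding in these cells.

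Tagln encodes transgelin (SM22 alpha), an actin-binding protein that is an early marker of smooth muscle. It was already measurable at D0, at 1.49 and 1.75 CPM in Tet2-/- and 2.26 to 4.66 CPM in the other genotypes. At D6 WT had 187, 322 and 313 CPM and Tet1-/- 347, 149.8 and 240.2 CPM. DKO had 366 and 461 CPM, TKO 271 and 467 CPM, and Tet2-/- 78.4 and 83.9 CPM. The Tet2-/- clones were the lowest at both days. The log2 rise was 6.54 ± 0.34 in WT (edgeR adjusted p = 3.08e-11) and 5.63 ± 0.41 in Tet2-/- (edgeR adjusted p = 1.30e-08), and the test of their difference missed the threshold (-0.91, 95% interval -1.96 to 0.14, edgeR adjusted p = 0.214). Per kilobase Tagln was the highest of the 10 genes in WT at D6, at 173 CPM, with Myh9 at 169 CPM and Tpm1 at 152 CPM.

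Cnn1, calponin 1, restrains the myosin ATPase on actin filaments, and Myl9 is the regulatory light chain whose phosphorylation starts contraction. At D0 Cnn1 was at 0.341 and 0.321 CPM in Tet2-/- and 0.565 to 1.94 CPM elsewhere. At D6 it was at 14.2 and 15.1 CPM in Tet2-/- and 20.1 to 30.2 CPM elsewhere. Myl9 at D0 was at 0.341 and 0.643 CPM in Tet2-/- and 0.418 to 2.67 CPM elsewhere. At D6 it was at 19.4 and 22.3 CPM in Tet2-/- and 22.1 to 38.4 CPM elsewhere. Cnn1 in Tet2-/- did not overlap with the other genotypes at either day, whereas Myl9 did at both. The log2 rise of Cnn1 was 4.79 ± 0.27 in WT and 5.45 ± 0.37 in Tet2-/-, and that of Myl9 was 3.95 ± 0.30 and 5.34 ± 0.41. The larger rises in Tet2-/- missed the threshold (edgeR adjusted p = 0.342 and 0.0612), and for Myl9 the interval of the difference ran from 0.35 to 2.43. The Myl9 call depended on the tool and on other libraries: DESeq2 gave 1.39 with an adjusted p of 0.0172, and edgeR called it without either D0 library of DKO (adjusted p = 0.0494 and 0.0493) or of TKO (adjusted p = 0.0222 and 0.0225).

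Tpm1 and Tpm2 encode tropomyosins, which lie along the actin filament and control access of myosin. At D0 Tpm1 was at 22.4 to 29.2 CPM in WT and 34.4 and 32.3 CPM in Tet2-/-. At D6 WT reached 307, 542 and 473 CPM, Tet1-/- 376, 247 and 278 CPM, and Tet2-/- 128 and 125 CPM. DKO had 389.8 and 388 CPM, and TKO 331 and 561 CPM. Tet2-/- lay above WT at D0, as did TKO (33.8 and 35.2 CPM), and below all other libraries at D6. The log2 rise was 4.12 ± 0.22 in WT and 1.92 ± 0.24 in Tet2-/- (edgeR adjusted p = 3.50e-11 and 6.99e-06). The other transcript lines of Tpm1 behaved alike, with log2 ratios of D6 to D0 from 3.13 to 4.23 over its 10 lines in WT and 1.19 to 2.00 in Tet2-/-, although these lines share exons. Tpm2 rose by 2.25 ± 0.15 in WT and 1.59 ± 0.18 in Tet2-/-, and D6 levels were 25.8 to 36.8 CPM in WT and 24.01 and 24.2 CPM in Tet2-/-.

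Myh9, the heavy chain of non-muscle myosin IIA, was abundant before differentiation. At D0 it was at 354 to 400 CPM in WT and at 492 and 464 CPM in Tet2-/-, which were the highest of all D0 libraries. At D6 WT had 1033, 1436 and 1290 CPM, Tet1-/- 1007, 872 and 951 CPM, and Tet2-/- 574 and 614 CPM. DKO had 1283 and 1106 CPM, and TKO 928 and 1020 CPM. Tet2-/- went from the highest to the lowest. The log2 change in Tet2-/- was 0.31 ± 0.16 and missed the threshold (edgeR adjusted p = 0.123), while it was 1.75 ± 0.13 in WT (edgeR adjusted p = 3.57e-09).

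Myocd was the least abundant of the tested genes at D6. At D0 it had 0 to 2 counts in every library except 1 of TKO (D0 replicate 2), which had 9. At D6 WT had 0.980, 2.37 and 2.23 CPM and Tet1-/- 0.929, 0.928 and 0.316 CPM. DKO had 0.760 and 0.460 CPM, TKO 0.584 and 0.899 CPM, and Tet2-/- 0.230 and 0.139 CPM. The Tet2-/- values rest on 8 and 4 counts and were the lowest. The pooled D6 to D0 ratio was 132 in WT (95% counting interval 23.3 to 5249) and 10.9 in Tet2-/- (1.61 to 467). In TKO the log2 change of Myocd was 1.94 ± 0.86 (edgeR adjusted p = 0.0673), and with each clone as a block it was 2.17 (edgeR adjusted p = 0.0336). Both are descriptions, since Myocd passed the filter through D6 alone and 1 library held all 9 of its TKO counts at D0.

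**Figure D2:**
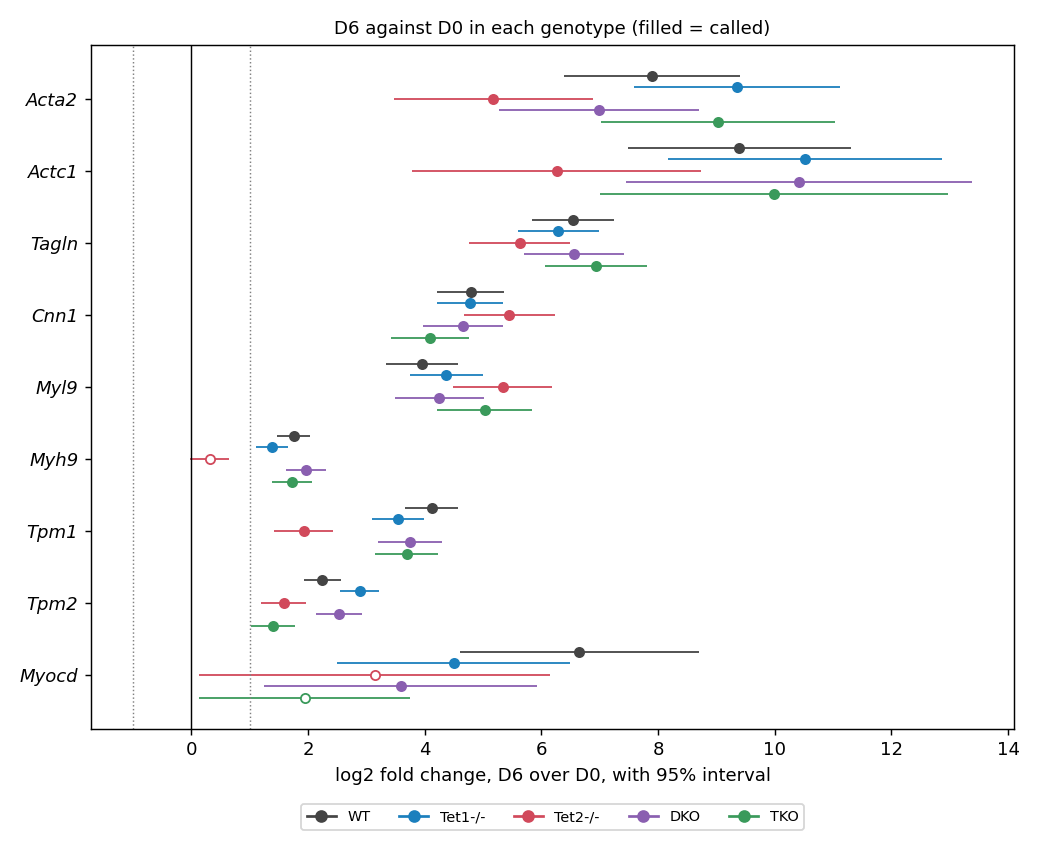
Log2 fold change of D6 over D0 by genotype with 95% intervals, where filled symbols passed the test and dotted lines mark a 2-fold change. Myh9 in Tet2-/- (0.31) lies near 0, while Cnn1 and Myl9 in Tet2-/- (5.45 and 5.34) lie to the right of WT.

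The second comparison asked whether D6 levels differed between mutant and WT cells. In Tet2-/- 6 of 9 genes were lower than in WT, where 9.45% of all tested genes were called lower. These were Myocd (-3.29 ± 0.63 on the log2 scale), Actc1 (-2.90 ± 0.63), Acta2 (-2.18 ± 0.62), Tpm1 (-1.81 ± 0.28), Tagln (-1.77 ± 0.36) and Myh9 (-1.09 ± 0.14). Their edgeR adjusted p-values were 0.00703, 0.0103, 0.0255, 0.00434, 0.00851 and 0.00410. Myocd among them is a description, since its 8 and 4 counts in Tet2-/- lay under the filter's minimum of 10. It passed the filter through the other genotypes, and the count of 6, the median and the non-overlap below include it. Cnn1 differed by less than 2-fold (-0.70 ± 0.20, edgeR adjusted p = 0.0261), and Tpm2 (-0.39 ± 0.16) and Myl9 (-0.26 ± 0.17) missed the threshold (edgeR adjusted p = 0.0861 and 0.269). The median over the 9 genes was -1.77, beside -0.03 over all tested genes. For 8 of 9 genes both Tet2-/- clones lay below the other 10 libraries, which held for 15.2% of tested genes, and Myl9 was the exception.

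The calls in Tet2-/- rest on both clones. Without Tet2-/- replicate 2 none of the 9 genes passed, and no gene at all of those tested did. Without Tet2-/- replicate 1 Myh9 and Tpm1 still passed, with 304 genes in all. The fold changes themselves moved little, to -2.06 and -2.30 for Acta2 and to -1.72 and -1.82 for Tagln. Without WT replicate 2 the count was 4 and without WT replicate 3 it was 5. Some marker sums of other cell types set the same clones apart. Fibroblast and pericyte markers summed to 25.3 and 27.6 CPM in Tet2-/- and 46.5 to 422 CPM elsewhere, and cardiac markers to 13.4 and 16.6 CPM against 22.5 to 41.9 CPM. Skeletal muscle markers, at 8.06 and 8.58 CPM, lay within the 6.03 to 13.8 CPM of the other genotypes, as did endothelial markers, at 54.7 and 62.4 CPM within 29.0 to 184 CPM. In undifferentiated WT cells the cardiac sum was already 32.0 to 46.2 CPM and the endothelial sum 105 to 121 CPM. These sums are therefore no measure of the cell types formed by D6. The part of their D6 differences in the contractile genes was not tested.

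No contractile gene passed in Tet1-/-, DKO or TKO against WT at D6 with edgeR or DESeq2, and edgeR called 0 of all tested genes in each. At an unadjusted p under 0.05, edgeR gave 4 of the 9 in Tet1-/- (Myl9, Myh9, Tpm1 and Myocd, background 12.6%), 2 in DKO (Myl9 and Myocd, background 14.6%) and 3 in TKO (Actc1, Myh9 and Myocd, background 23.5%). Over all genes, DESeq2 called 44, 185 and 470. For Acta2 in TKO the interval of the log2 difference ran from -0.97 to 1.49. Myocd was at -1.35 ± 0.47 in Tet1-/-, -1.58 ± 0.54 in DKO and -1.33 ± 0.54 in TKO.

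**Figure D3:**
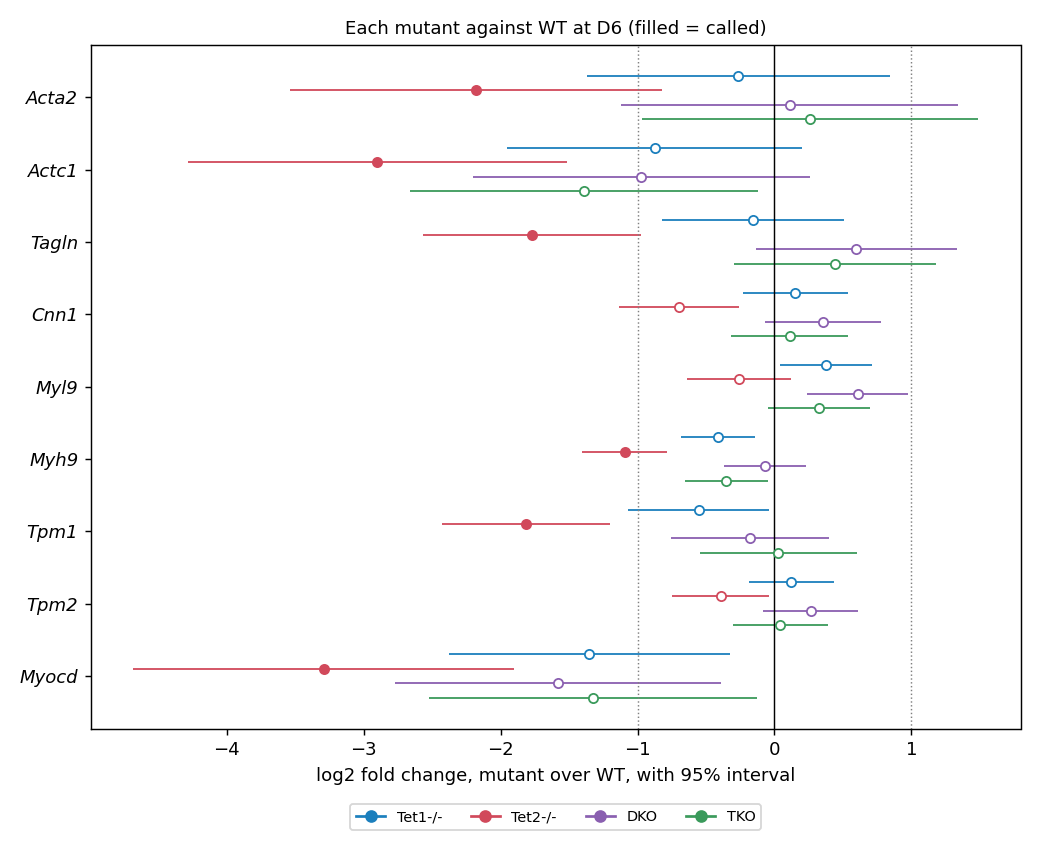
Log2 fold change of each mutant over WT at D6 with 95% intervals, where filled symbols passed the test. The 6 filled symbols all belong to Tet2-/-, from -1.09 for Myh9 to -3.29 for Myocd, whose value is a description.

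Tet2-/- was next compared with the other mutants, since a difference from WT does not show a difference among mutants. Against DKO 5 of 9 genes were lower (Acta2, Tagln, Cnn1, Myh9 and Tpm1, background 6.37%). Against TKO 3 were lower (Acta2, Tagln and Tpm1, background 6.01%), and against Tet1-/- 2 were lower (Tagln and Tpm1, background 4.48%). Tagln and Tpm1 were therefore lower in all 3 comparisons, with log2 differences for Tagln of -2.37 ± 0.39 against DKO, -2.21 ± 0.39 against TKO and -1.61 ± 0.36 against Tet1-/-. For Tpm1 they were -1.64 ± 0.29, -1.84 ± 0.29 and -1.26 ± 0.27. These comparisons share the Tet2-/- libraries. Actc1 missed the threshold in each, for instance against DKO at -1.93 ± 0.64 (edgeR adjusted p = 0.0644). Without either Tet2-/- replicate none of the 9 genes passed in these comparisons. The count against DKO was 1 without DKO replicate 1 and 3 without DKO replicate 2. Against Tet1-/- the count of 2 became 5 with DESeq2 (beside 1416 of all genes called either way), 5 with adjusted p alone (1544), 4 without a filter (1143) and 4 in the fit over both days (1536). It was 0 without Tet1-/- replicate 1 (214) and 4 without replicate 3 (1713). Against TKO it was 5 without Tet1-/- replicate 3 (1524) and 2 without WT replicate 3. Without TKO replicate 2, the differences against TKO shrank to -0.98 for Acta2 and -1.78 for Tagln, and neither call held.

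**Figure D4:**
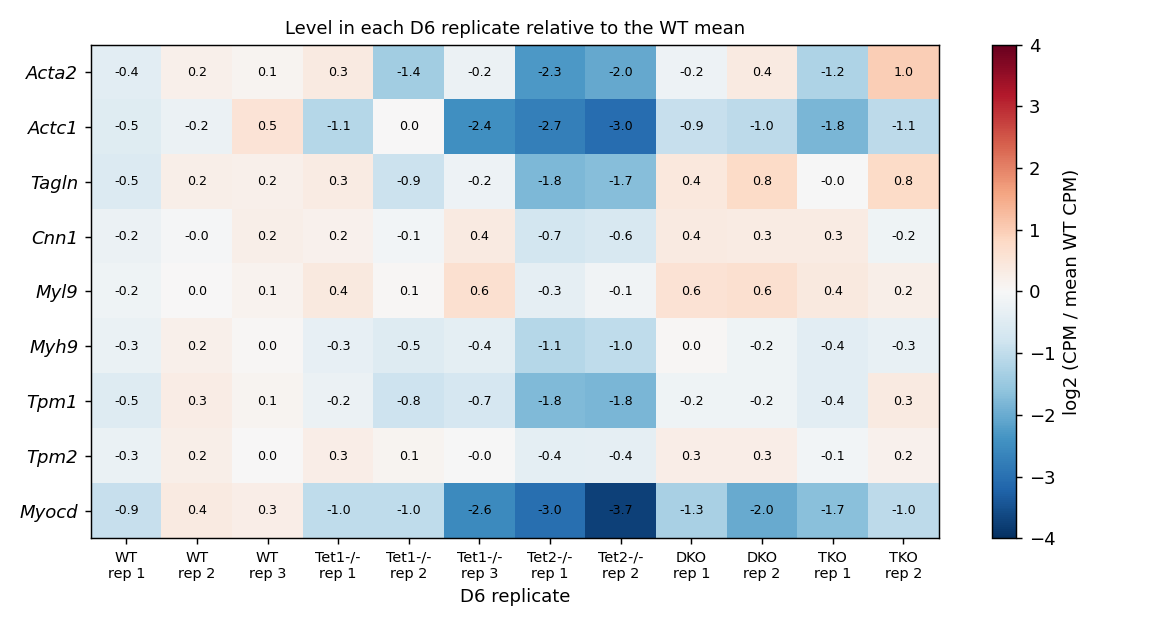
Log2 of the CPM of each D6 clone over the mean of the 3 WT clones for 9 genes, where blue is lower and red is higher than the WT mean. Both Tet2-/- columns are blue in every row, while Acta2 ran from 17.9 to 92.8 CPM over the clones of the other mutants.

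The third comparison asked whether the rise itself differed from WT. In Tet2-/- the rise was smaller for Tpm1 (-2.19 ± 0.31) and Myh9 (-1.44 ± 0.21), both with an edgeR adjusted p of 0.00122, beside 5.13% of all genes called lower. The others of the 7 genes that passed the D0 filter were not called by edgeR. Among them was Acta2 at -2.72 ± 1.35 (edgeR adjusted p = 0.167), which rests largely on 1 D0 library of Tet2-/-. DESeq2 called 3, Tpm1, Myh9 and, as a larger rise, Myl9 (1.39, adjusted p = 0.0172), beside 1636 of all genes either way. In Tet1-/-, DKO and TKO edgeR called none of the 7 genes that passed the D0 filter, beside 0, 0 and 3.58% of all genes. DESeq2 called none of them either, beside 12, 20 and 809 of all genes. At an unadjusted p under 0.05 there were 1 (Tpm2), 0 and 2 (Myl9 and Tpm2) with edgeR, beside 7.67%, 8.02% and 23.6% of all genes. Without TKO D0 replicate 2 Myl9 (2.23) and Tpm2 (-1.01) passed in TKO. Actc1 and Myocd, which passed the filter through D6 alone, give no test here in any mutant. In TKO the difference for Tpm2 was under 2-fold (-0.85 ± 0.23, edgeR adjusted p = 0.0380).

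At D0 none of the 7 tested genes was called in any mutant against WT with edgeR, beside 3.19% of all genes in Tet2-/-, 0.00692% in Tet1-/-, 0.0346% in DKO and 3.15% in TKO. At an unadjusted p under 0.05 there were 5 in Tet2-/- (background 29.2%), 1 in Tet1-/- (12.6%), 1 in DKO (14.4%) and 3 in TKO (26.4%), and DESeq2 called 1 (Myl9 in Tet2-/-), 0, 0 and 0. Leaving out 1 library gave up to 2 in Tet2-/- (without either TKO replicate, or 1 without WT D0 replicate 1) and up to 2 in TKO (without TKO D0 replicate 2, or 1 without replicate 1). In Tet2-/- the 3 genes below WT were Myl9 (-1.66 ± 0.50, edgeR adjusted p = 0.0550), Cnn1 (-1.37 ± 0.46, edgeR adjusted p = 0.0768) and Tagln (-0.87 ± 0.27, edgeR adjusted p = 0.0586). Tpm1 and Myh9 leaned the other way (0.37 ± 0.12 and 0.34 ± 0.14). Fibroblast and pericyte markers summed to 69.2 and 70.0 CPM in Tet2-/- at D0 and 24.8 to 52.3 CPM elsewhere, but this sum was mostly Thy1 (57.8 CPM in Tet2-/- and 30.2 CPM in WT), and 4 of the 6 tested markers were below WT (list median -0.24, none called). In TKO Tpm2 was higher by under 2-fold (0.88 ± 0.18, edgeR adjusted p = 0.0134).

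The D6 pattern was set beside other gene lists of the same programme, to be read against the 20.7% of all genes that rose in WT and the 9.45% that were lower in Tet2-/- at D6. No such share is given for genes that fell in WT or were higher in Tet2-/- at D6, so those counts are listed only. Of 15 further smooth muscle genes, 9 rose in WT (median log2 change 1.29) and 4 in Tet2-/- (median 0.61, background 12.7%). At D6, 4 were lower in Tet2-/- than in WT, Lmod1 (-2.96 ± 0.44), Pdlim3 (-2.29 ± 0.36), Cald1 (-1.50 ± 0.26) and Csrp1 (-1.26 ± 0.24), with a list median of -0.84 beside -0.0330 over all tested genes. Others leaned the other way: Csrp2, a LIM-domain protein, was higher by under 2-fold (0.97 ± 0.21, edgeR adjusted p = 0.0106), and Synpo2, an actin-binding protein, was at 1.32 ± 0.46 and missed the threshold (edgeR adjusted p = 0.0535). The rise of Synpo2 from D0 to D6 was larger in Tet2-/- than in WT (2.62 ± 0.60, edgeR adjusted p = 0.00988). At D0 it was at 0.469 CPM in Tet2-/-, from 9 and 19 counts, and at 1.16 CPM in WT. By the same test 4 genes of the list had a smaller rise (background 5.13%), and 13 of 15 lay below 0 (median -0.55). At D0, 1 of 14 tested list genes was lower in Tet2-/- (background 3.19% either way). Without Tet2-/- replicate 2 no gene of any list passed between Tet2-/- and WT at D6. Myh11, the smooth muscle myosin heavy chain and the defining marker of the mature cell, was at 1.17 ± 0.26 CPM (SD, n = 3) in WT at D6 and 0.613 CPM in Tet2-/-. In WT it had risen from 0.415 CPM at D0 (1.48 on the log2 scale, edgeR adjusted p = 0.0148). That call was lost without WT D0 replicate 1 or 3. Des, the intermediate filament desmin, was at 0.31 ± 0.14 (log2, D6 over D0) in WT and missed the threshold.

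Among 18 non-muscle and related forms of the same proteins, 5 rose and 1 fell in WT, and the median was 0.38. At D6, 2 of 18, or 11.1% and near that background, were lower in Tet2-/- (the skeletal alpha-actin Acta1, -2.89 ± 0.36, and Cnn2, -1.09 ± 0.20) and 1 higher (Tagln3, 2.096 ± 0.39), while Actb, the cytoplasmic beta-actin, differed by -0.07 ± 0.14. Of 12 regulators around SRF, 6 rose and 2 fell in WT (median 0.83), and the list median in Tet2-/- against WT at D6 was -0.29. Srf itself was at 0.47 ± 0.14 (log2, D6 over D0), below 2-fold, and was at -0.12 ± 0.15 in Tet2-/- against WT at D6. Gata6 and Prdm6, a GATA factor and a PR-domain factor, were lower in Tet2-/-, at 0.601 and 0.0432 CPM against 40.8 and 38.9 CPM in WT.

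Among 9 genes of TGF-beta and matrix signalling, which promotes the smooth muscle programme, 7 rose in WT (median 2.46) and 5 were lower in Tet2-/- at D6. These were Tgfb2 (-3.30 ± 0.77), Tgfb1 (-2.89 ± 0.67), Cyr61 (-2.76 ± 0.38), Tgfb3 (-2.54 ± 0.35) and Tgfbr2 (-1.59 ± 0.24), and the list median was -1.59. Cardiac markers had 6 of 12 lower in Tet2-/-, with the troponins Tnnt2 at -4.49 ± 1.06 and Tnni1 at -4.48 ± 0.95, and fibroblast and pericyte markers 5 of 8, with the collagen gene Col1a1 at -4.36 ± 0.68 (-3.61 without WT replicate 3) and the pericyte gene Rgs5 at -6.16 ± 0.92. Their list medians were -2.18 and -2.42. Of the skeletal markers 1 of 4 tested was lower (Tnnt3, list median -0.38), and Myog, Myf5, Myf6 and Ckm were too low to test. Of the endothelial markers 1 of 4 was lower (Kdr, -6.51 ± 1.35, list median -0.88), and Emcn had 0 counts in WT and Tet2-/- libraries at D6. Among 6 ESC markers Pou5f1 was called higher (1.18 ± 0.27), and the list median was 1.17 beside -0.0330 over all tested genes.

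Genes whose D6 pattern lay closest to that of Acta2 and Tagln were sought over the 12 D6 libraries among 13193 non-member genes, by the root mean square difference of centred log2 CPM. For Acta2 these were Pgf (0.33), Mmp9 (0.33), Serpinb9b (0.36), Robo2 (0.37) and S100a11 (0.38), beside a spread of Acta2 itself of 0.99. For Tagln they were Fgfbp1 (0.21), Clu (0.22), Mmp9 (0.24), Dysf (0.26) and 9130008F23Rik (0.26), beside 0.84. Between the 2 genes the difference was 0.38. These values describe 12 libraries that share genotype and clone.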

How the data were processed

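RNA-seq libraries of polyadenylated RNA were sequenced by the authors as paired-end reads and mapped with STAR 2.5.1 to build mm9, and the submitters' processing notes also name DESeq2. The authors deposited counts, whole numbers of reads per transcript line, without normalization. The sources name both featureCounts and HTSeq as the counter and do not give its strand setting, so overlapping and antisense genes are uncertain. No deposited column was left unmapped (0), and spike-in RNA had been added, but 0 spike-in lines were in the tables used here. Samples were grouped by genotype and day from the labels.

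Where a symbol had several lines (4911 symbols) its first one was taken. Tests used edgeR 4.0.16 (R 4.3.3) with TMM, filterByExpr (minimum count 10) and quasi-likelihood tests on a model with 1 coefficient per group. Day effects and their differences came from all 24 libraries (15639 genes), D6 and D0 comparisons from 12 libraries each (15435 and 14456 genes). Called means a Benjamini-Hochberg adjusted p under 0.05 and a change over 2-fold, and ± is an SE unless SD is named. All 10 members were named, with at most 4 genes of each other list by the largest log2 change among those called in WT by day or in Tet2-/- against WT at D6, markers near 0, and the 5 nearest genes for Acta2 and Tagln. Csrp1, Csrp2, Synpo2, Actb, Srf, Tgfb1, Tgfbr2 and Thy1 were named after their values were seen. Members and lists were chosen with earlier results of these data known. Alternatives were other scalings, no filter, DESeq2 1.42.0, the highest line per symbol, adjusted p alone, a joint fit, each library left out and the clone as block. Clone labels pair the days, since a clone is the same cell line, and deviations from group means correlated between days at r = 0.0813 to 0.193. In the label of 1 DKO clone at D6 the point is missing, and it was read as 5.12.

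Each fit was tested on simulated counts. Promoters came from RefSeq (GRCm38.p6) and shared 38-base words from GENCODE coding transcripts.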

Additional observations from a re-analysis of the deposited data

Results flagged for a closer look

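The day effect of Tpm1 was smaller in Tet2-/- than in WT by 2.19 on the log2 scale (-2.19 ± 0.31, SE, edgeR adjusted p = 0.00122), and that of Myh9 by 1.44 (-1.44 ± 0.21, edgeR adjusted p = 0.00122). Both are listed because the test of the difference between the day effects passed its threshold. Both Tet2-/- clones lay above the 3 WT clones at D0 and below them at D6 for both genes. The fibroblast and pericyte markers of the Tet2-/- clones summed to 25.3 and 27.6 CPM at D6 against 46.5 to 422 CPM in the other genotypes, with 7 of 8 below WT, and at D0 4 of 6 tested were below WT and none was called. The ESC marker sums of these clones were 4414 and 4470 CPM at D0, below the 4651 to 5293 CPM elsewhere, and 2261 and 2456 CPM at D6, above 745 to 2243 CPM. The part of these sums in the result was not tested.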

How the results depend on the processing

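Of the 7 contractile genes that passed the D0 filter, those called higher at D6 (7 in WT, Tet1-/-, DKO and TKO, 6 in Tet2-/-) passed under all 31 alternatives run, the clone as replicate block included. With adjusted p alone the count became 1 for the TKO difference in day effects, 5 for Tet2-/- against Tet1-/-, 5 for Tet2-/- against TKO and 2 for TKO against WT at D0. DESeq2 gave 1 (Myocd), 5 for Tet2-/- against Tet1-/- and 1 for Tet2-/- against WT at D0, and library totals, no filter and the joint fit also gave 1 there (Myl9). Without a filter Tet2-/- against Tet1-/- gave 4, and with the joint fit 4. Leaving out each library in turn gave 0 to 6 for Tet2-/- against WT at D6, 0 to 4 against Tet1-/-, 0 to 6 against DKO, 0 to 5 against TKO, 0 to 2 for Tet2-/- and 0 to 2 for TKO against WT at D0, and 0 to 2 for the TKO difference, where each count of 1 is Myocd, which passed the filter through D6 alone. Myocd in that difference turned from -4.71 to 0.66 without TKO D0 replicate 2, the library with all 9 TKO counts at D0, and the leave-outs ran from -6.72 to 0.66. Myl9 in the Tet2-/- difference passed with DESeq2 (1.39, adjusted p = 0.0172) and without either D0 library of DKO or TKO. The cause of the other shifts was not tested. With the clone as replicate block the counts for the differences in day effect were 0, 2, 0 and 0, and besides Myocd in TKO it changed no call of a contractile gene. Tpm1 and Myh9 in the Tet2-/- difference passed in all 24 leave-outs, between -2.39 and -2.02 and between -1.56 and -1.33. Over all genes edgeR called 0 in Tet1-/-, DKO and TKO against WT at D6 and DESeq2 44, 185 and 470. At D0 edgeR called 1 and 5 in Tet1-/- and DKO against DESeq2's 50 and 111, and for the differences in day effect 0 and 0 against 12 and 20. A lone Tet2-/- clone is assumed to vary like the other groups.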
